A study of Mus musculus with 5 samples.

Results

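All 5 arrays of the series were split by the signal of Krt10, the suprabasal keratin of stratified epithelium, into 2 Krt10-high tumours and 3 Krt10-low tumours. The arrays were grouped by the brightest Krt10 probe set, with a log2 signal of 10 or more counted as high. The split therefore uses the measured values, and everything said below of the Krt10-high against the Krt10-low arrays is a description without a test. One array of each genotype fell on the high side, and in each genotype it came from the oldest mouse.

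RNA was measured on Affymetrix mouse arrays in epithelial tumour cells that had been pulled from dissociated C57BL/6 prostate tumours with EpCAM beads, on ice throughout. In both genotypes the Probasin driver, which acts in prostate epithelium, deletes floxed alleles, among them Smad4, the shared partner of the TGF-beta and BMP Smads. Mice called nTKO also carry floxed Pygo2, a chromatin reader and co-activator of beta-catenin. The Krt10-high arrays were nDKO 1 (15.86 weeks of age) and nTKO 1 (31.43 weeks). The Krt10-low arrays were nDKO 2 and nDKO 3 (both 10.71 weeks) and nTKO 2 (16 weeks). No mouse without these alleles was analysed here. Within a genotype, age and the Krt10 state cannot be told apart, but nDKO 1 and nTKO 2 are of like age and lie on opposite sides of the split, with the genotype differing as well.

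Stratified squamous epithelium renews from a basal layer marked by Krt5, Krt14 and the transcription factor Trp63. Cells that leave this layer switch to Krt10 and Krt1 or, in mucosa, to Krt13, join through desmosomes and end by cross-linking a cornified envelope from proteins such as involucrin and the Sprr family. The normal prostate has basal and luminal cells and makes no such envelope. Squamous change is known in prostate epithelium, among other settings after oestrogen exposure.

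The 5 markers of the squamous state set the arrays far apart. The Krt10 signal was 13.03 in nDKO 1 and 13.04 in nTKO 1, and it was 6.93 in nDKO 2, 6.71 in nDKO 3 and 6.90 in nTKO 2. Krt1, the partner keratin of Krt10, measured 11.57 and 10.77 in the high arrays and 6.02, 6.03 and 5.82 in the low ones, in the same order of arrays. Krt13, a mucosal suprabasal keratin, measured 11.97 and 9.62 against 4.8, 5.98 and 5.55. For Krt10 the high and low arrays are apart by the split itself, and they did not overlap for Krt1 and Krt13 either. The share of all genes without overlap was not taken. Krtdap, a secreted protein of differentiating keratinocytes, was at 9.83 in nDKO 1 and 11.23 in nTKO 1 and at 6.16, 5.21 and 4.58 in the low arrays. Sprr2f, a cornified envelope precursor, was at 10.82 and 8.14 against 3.98, 4.34 and 3.27. Sprr2 genes are near-identical copies, so the probe set may read more than 1 of them. Krt10 set the split, and the other 4 markers are keratinisation genes, so their agreement with the label is a description. Krt13 and Sprr2f were higher in nDKO 1 and Krtdap in nTKO 1. No array lay near the cut of 10: the lower Krt10 value above it was 13.03 and the highest below it 6.93.

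**Figure D1:**
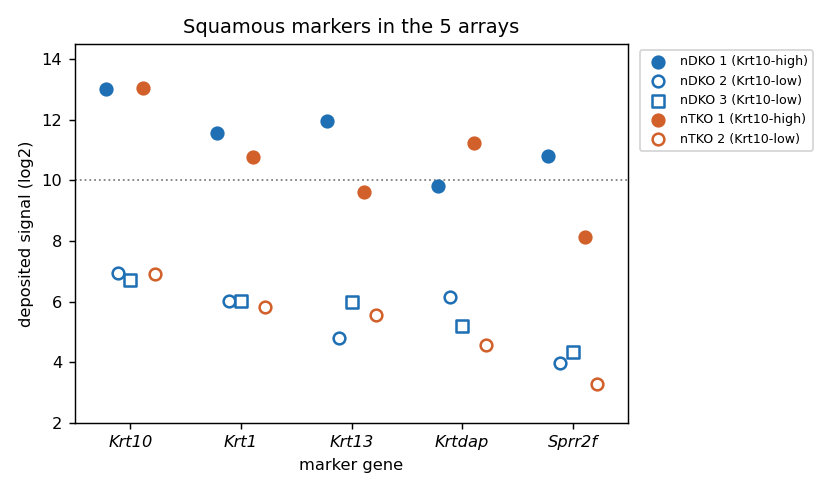
Deposited log2 signal (vertical axis) of the 5 marker genes (horizontal axis) in each array, filled symbols for Krt10-high and open symbols for Krt10-low arrays, blue for nDKO and orange for nTKO; the dotted line is the cut of 10 that was applied to Krt10. Krt10 lies at 13.03 and 13.04 in the 2 high arrays and at 6.71 to 6.93 in the 3 low ones.

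The promoters of the 3 markers below are shown because each holds the AP-1 motif TGANTCA, a sequence that Fos and Jun dimers bind, and they were chosen after the motif shares were seen. They come from RefSeq (GRCm38.p6), run from 250 bases before the start of the gene to 50 after it, and are written 5′ to 3′ on the gene's strand. Capitals mark matches to TGANTCA, to AACCNGTT (grainyhead-like factors) or to AGAACA (a part of the sites of the androgen and glucocorticoid receptors), each searched on both strands and free to overlap. Krt13 lies at chr11:100121517-100121816 on the minus strand (1 of its 2 entries), Krtdap at chr7:30787655-30787954 on the plus strand and Sprr2f at chr3:92364937-92365236 on the plus strand.
Krt13: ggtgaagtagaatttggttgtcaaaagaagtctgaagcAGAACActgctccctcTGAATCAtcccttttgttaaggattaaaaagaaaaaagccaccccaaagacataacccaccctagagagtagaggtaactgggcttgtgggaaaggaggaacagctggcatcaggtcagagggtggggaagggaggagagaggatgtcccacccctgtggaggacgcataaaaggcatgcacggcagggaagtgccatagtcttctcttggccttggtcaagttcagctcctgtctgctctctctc
Krtdap: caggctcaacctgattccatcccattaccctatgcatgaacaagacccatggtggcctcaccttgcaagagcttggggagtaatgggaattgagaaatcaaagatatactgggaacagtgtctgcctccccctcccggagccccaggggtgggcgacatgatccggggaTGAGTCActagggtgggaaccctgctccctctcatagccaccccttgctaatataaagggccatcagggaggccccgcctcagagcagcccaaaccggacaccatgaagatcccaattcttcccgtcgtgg
Sprr2f: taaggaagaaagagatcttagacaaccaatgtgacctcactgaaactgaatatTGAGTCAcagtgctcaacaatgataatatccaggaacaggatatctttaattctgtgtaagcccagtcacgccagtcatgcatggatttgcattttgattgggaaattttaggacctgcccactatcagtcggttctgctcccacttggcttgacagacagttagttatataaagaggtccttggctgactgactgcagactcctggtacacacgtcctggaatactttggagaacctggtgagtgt
The AP-1 match starts at -196 in Krt13, at -81 in Krtdap and at -197 in Sprr2f, counted from the start of the gene at 0. Krt13 also holds AGAACA at -212. The promoter of Krt10, the gene of the split, holds AGAACA but no TGANTCA, and Krt1 is not among the genes in which a match was found.

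The keratinisation genes as a whole, markers included, gave mixed results. These comprise a list of envelope and keratinisation genes and all genes named Krt with a number, Krtap, Sprr or Lce, and 158 of them were measured. A gene was counted where nDKO 1 differed from the mean of nDKO 2 and nDKO 3, and nTKO 1 from nTKO 2, by at least 1 log2 unit (2-fold) in the same direction. By this count 24 of the 158 (15.2%) were higher in both Krt10-high arrays and 0 were lower, with medians over all 158 of 0.005 in nDKO and 0.12 in nTKO. The 24 include Krt10, which set the split, and the markers Krt1, Krt13, Krtdap and Sprr2f, so these genes raise the share. Among the 24 were Ivl, involucrin (differences of 3.73 in nDKO and 3.29 in nTKO), the transglutaminases Tgm1 (2.09 and 1.87) and Tgm5 (1.07 and 1.20), the envelope protein Scel (1.25 and 1.60), the calmodulin-like Calml3 (3.51 and 4.65) and the protease Asprv1 (2.0 and 2.30). Lor and Flg, late proteins of the epidermal envelope and granules, did not pass. Lor, loricrin, measured 5.49 in nDKO 1 and 5.06 to 5.07 in the other 4 arrays, and Flg, filaggrin, lay between 2.28 and 3.03, below the array medians. Cst6, a cystatin of the cornifying layers, was the 1 keratinisation gene 2-fold apart in opposite directions, at 6.93, 9.33 and 8.61 in nDKO 1, 2 and 3 and at 9.87 and 4.75 in nTKO 1 and 2. Ivl, Asprv1 and Calml3 belong to the genes the split is about, so their differences add nothing independent to it.

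Outside keratinisation, 18035 genes were compared, and few differed in the same direction in both genotypes. Of these, 112 (0.621%) were at least 2-fold higher in both Krt10-high arrays, 20 (0.111%) were lower in both, and 20 (0.111%) differed 2-fold in opposite directions. With the keratinisation genes included, 136 of 18193 genes (0.748%) were higher in both and 20 (0.11%) lower. The counts from gene lists below are read beside these all-gene shares. Within nDKO alone 278 genes (1.54%) were higher and 218 (1.21%) lower in the Krt10-high array, and within nTKO 319 (1.77%) were higher and 122 (0.676%) lower. Of the genes higher in nDKO 40.3% were also higher in nTKO, and of those higher in nTKO 35.1% were also higher in nDKO. For the lower genes these shares were 9.17% of the nDKO genes and 16.4% of the nTKO genes. Since the arrays were split on a readout of the same arrays, these shares are given with no expectation beside them. Across the 18035 genes, which are not independent of each other, the 2 differences correlated at 0.37 (Pearson) and 0.30 (Spearman), and they share no array.

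Differences between arrays of one state give the counts within a single genotype a rough scale. Between the Krt10-low arrays nDKO 2 and nDKO 3, which share genotype and age, 174 genes (0.965%) were at least 2-fold apart. Between nTKO 2 and the mean of these nDKO arrays 147 genes (0.815%) were 2-fold apart, and between the Krt10-high arrays nDKO 1 and nTKO 1 461 genes (2.56%). The last 2 of these comparisons also differ in genotype and age. The first sets single arrays against each other, while the nDKO difference takes a mean of nDKO 2 and nDKO 3. Each of these counts takes either direction in 1 comparison, while the 112 higher and 20 lower genes had to pass 2 comparisons in the same direction. The 112 higher genes had median differences of 1.84 in nDKO and 1.63 in nTKO, and 64 of them had the larger difference in nDKO. For 110 of the 112, both Krt10-high arrays lay above all 3 low arrays, and 107 also passed 2-fold in the like-age pair, nDKO 1 minus nTKO 2. Both counts come from the arrays on which the genes were chosen, so neither is separate support. The share of all genes without overlap was not taken. The same limits hold where single genes are said below not to overlap. The 20 lower genes had medians of -1.40 and -1.80. For 17 of the 20 the high and low arrays did not overlap, and 19 passed in the like-age pair, with the same limits. The count of lower genes was 33 without nDKO 2. Just inside the limit lay Atp1b3, a subunit of the sodium pump (1.07 and 1.0), and Dsc3 (1.01 and 1.89), and just outside it Cdkn2a, the cell cycle inhibitor locus (0.995 and 1.52), and Sox21 (1.19 and 0.98).

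**Figure D2:**
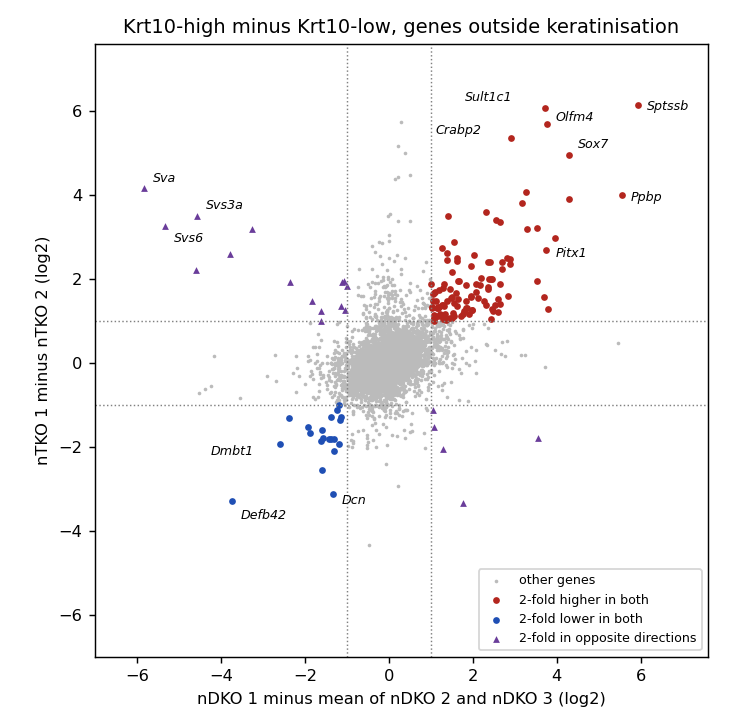
For each of 18035 genes outside keratinisation, the log2 difference nDKO 1 minus the mean of nDKO 2 and nDKO 3 (horizontal axis) against nTKO 1 minus nTKO 2 (vertical axis); dotted lines mark 1 log2 unit, red points are the 112 genes higher in both, blue points the 20 lower in both, purple triangles the 20 in opposite directions and grey points all others. Sptssb stands at the upper right, and Sva at the upper left.

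The gene with the largest shared difference outside keratinisation was Sptssb, a small subunit of serine palmitoyltransferase, the enzyme that opens sphingolipid and ceramide synthesis. Its signal was 12.93 in nDKO 1 and 12.08 in nTKO 1, against 6.35 in nDKO 2, 7.66 in nDKO 3 and 5.93 in nTKO 2, so the differences were 5.93 and 6.15 log2 units. The other probe set of the gene gave 5.79 and 5.61. Other enzymes and carriers of lipids stood beside it. Fabp5, the epidermal fatty acid binding protein, was at 12.82 and 12.69 in the high arrays and at 10.25, 10.08 and 9.33 in the low ones, and Crabp2, which carries retinoic acid, at 10.57 and 10.35 against 7.84, 7.47 and 4.98. Neither gene overlapped between the groups, with the limits given above. Fads2b, a relative of the fatty acid desaturases, differed by 3.53 and 3.21, and Ephx3, an epoxide hydrolase that acts in the linoleate pathway of the skin barrier, by 2.56 and 3.40. The list of epidermal lipid and ceramide enzymes as such did not move in one direction: 1 of its 32 measured members (Fabp5) was higher in both, 0 were lower, and its medians were 0.00 and 0.095. Over all genes 0.748% were higher in both and 0.11% lower.

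Other named genes higher in both had varied roles. Olfm4, olfactomedin 4, a secreted glycoprotein of gut and prostate epithelium, measured 13.47 in nDKO 1 and 13.00 in nTKO 1, against 9.41, 10.01 and 7.31 in nDKO 2, nDKO 3 and nTKO 2. Ppbp, the chemokine Cxcl7, measured 10.54 and 8.44 against 4.01, 5.97 and 4.44. Ppbp is also made by megakaryocytes and platelets, and their part in this result was not tested. Ifitm1, an interferon-induced membrane protein, was at 13.08 and 12.90 in the high arrays and 9.22, 10.58 and 9.10 in the low ones. H60c, a ligand of the NKG2D receptor found in skin, differed by 3.29 and 3.19. Sult1c1, a sulfotransferase, measured 7.43 and 9.61 against 3.59, 3.84 and 3.53. Its difference was larger in nTKO (6.08) than in nDKO (3.72). The water channel Aqp4 measured 8.78 and 7.34 against 3.50, 5.49 and 3.44, but its other probe sets gave 2.04 and 0.70 in nDKO and 0.50 and 0.15 in nTKO. The urea transporter Slc14a1 differed by 3.96 and 2.98, and Teddm3 by 3.27 and 4.07.

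Sox7, a SoxF transcription factor best known from endothelium, measured 9.66 in nDKO 1 and 9.88 in nTKO 1 against 5.61, 5.14 and 4.93 in the low arrays. Its second probe set gave 0.03 and 0.64, so the difference rests on 1 probe set. Of 13 endothelial markers 0 were 2-fold higher or lower in both. Among them Pecam1 lay between 2.95 and 3.71 and Emcn between 3.08 and 3.15 over the 5 arrays. Pitx1, a homeobox factor of the oral epithelium and of the hindlimb, measured 8.83 and 7.88 against 4.79, 5.36 and 5.18, with a second probe set at 1.32 and 0.23.

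The regulators of stratified epithelium as a list held 37 measured genes, of which 3 were higher in both and 0 lower, with medians of 0.12 and 0.28. Over all genes 0.748% were higher in both and 0.11% lower, with medians of -0.01 and 0.02. Besides Pitx1, the 2-fold members were Grhl3, a grainyhead-like factor of the epidermal barrier, at 6.91 and 6.96 against 4.05, 4.02 and 4.48, and Elf5, an ETS factor of stratified and glandular epithelium, at 10.31 and 9.67 against 8.85, 9.15 and 8.32. A second Elf5 probe set gave 0.28 and 0.14. Sox21 (1.19 and 0.98) and Ovol1, a repressor that acts as keratinocytes leave the basal layer (0.91 and 0.99), fell just short in the probe set used. The other probe set of Sox21 passed 2-fold, at 1.89 and 2.0. Klf4 (0.31 and 0.65) and Zfp750 (0.54 and 0.71), late differentiation factors, differed by less than 2-fold. Grhl1 (-0.06 and 0.39) and Grhl2 (-0.08 and 0.17) had small differences of unlike sign. The AP-1 subunits on this list, Fosl2 (0.60 and 0.63), Junb (0.12 and -0.10) and Fosl1 (-0.13 and 0.00), did not pass 2-fold. Jdp2, a Jun dimerization protein that is not on the list, was 2-fold higher in both, at 9.94 and 9.13 against 7.98, 7.97 and 7.53. The AP-1 family as a whole was not counted.

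Promoters were compared through the same 3 motifs. RefSeq held a promoter for 81 of the 112 higher genes, 12 of the 20 lower genes, 19 of the 24 higher keratinisation genes and 14324 of the 18035 genes outside keratinisation, taking the first entry of a gene with several. TGANTCA stood in 13.6% (11) of the higher genes, 8.33% (1) of the lower genes, 47.4% (9) of the higher keratinisation genes and 6.20% of all genes outside keratinisation. AACCNGTT stood in 2.47%, 0%, 5.26% and 1.91%, and AGAACA in 12.3%, 0%, 21.1% and 14.4%. The 9 keratinisation promoters with TGANTCA include near-identical Sprr2 copies, so they are not independent, and none of these shares was tested. The share among keratinisation genes that were not higher in both was not taken. Shown here are the promoters of the first 2 named genes in each direction that have an entry in the RefSeq table (Sox7 and Dmbt1 have none), to set beside those of the markers. Sptssb lies at chr3:69859845-69860144 on the minus strand, Ppbp at chr5:90768268-90768567 on the plus strand, Defb42 at chr14:63046741-63047040 on the plus strand and Atp6v0e2 at chr6:48537319-48537618 on the plus strand, all in GRCm38.p6.
Sptssb: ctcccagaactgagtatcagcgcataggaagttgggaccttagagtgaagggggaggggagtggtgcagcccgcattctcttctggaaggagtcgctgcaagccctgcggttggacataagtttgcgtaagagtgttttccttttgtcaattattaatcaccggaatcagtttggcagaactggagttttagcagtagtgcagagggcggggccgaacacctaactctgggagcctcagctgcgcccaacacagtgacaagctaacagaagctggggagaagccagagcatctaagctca
Ppbp: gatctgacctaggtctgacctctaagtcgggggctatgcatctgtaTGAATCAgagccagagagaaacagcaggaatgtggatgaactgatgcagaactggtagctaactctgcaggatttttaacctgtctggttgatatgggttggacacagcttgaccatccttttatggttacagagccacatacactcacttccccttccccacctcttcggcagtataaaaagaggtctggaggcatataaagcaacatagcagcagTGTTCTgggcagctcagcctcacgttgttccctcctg
Defb42: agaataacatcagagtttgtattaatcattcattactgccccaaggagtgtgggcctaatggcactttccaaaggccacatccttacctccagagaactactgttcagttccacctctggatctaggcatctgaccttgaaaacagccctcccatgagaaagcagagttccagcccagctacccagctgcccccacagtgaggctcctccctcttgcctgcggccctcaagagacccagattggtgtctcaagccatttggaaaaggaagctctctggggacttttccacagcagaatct
Atp6v0e2: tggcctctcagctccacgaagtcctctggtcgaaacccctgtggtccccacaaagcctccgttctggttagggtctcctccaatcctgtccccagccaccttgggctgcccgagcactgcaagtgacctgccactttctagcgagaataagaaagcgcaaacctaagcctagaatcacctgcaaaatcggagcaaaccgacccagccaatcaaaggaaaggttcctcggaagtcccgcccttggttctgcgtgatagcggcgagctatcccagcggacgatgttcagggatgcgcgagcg
In Ppbp, TGANTCA matches at -204 and AGAACA, on the other strand, at 13. The windows of Sptssb, Defb42 and Atp6v0e2 hold none of the 3 motifs.

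Junction and basal genes were counted next, beside the 0.748% of all genes that were higher in both and the 0.11% lower. Of 12 desmosome genes, 3 were higher in both and 0 lower (medians 0.52 and 0.83): the desmosomal cadherins Dsc2, at 10.58 and 10.21 against 8.85, 8.64 and 8.35, and Dsc3, and the desmosomal membrane protein Perp, at 12.37 and 12.11 against 11.44, 11.22 and 10.64. A second Dsc3 probe set gave 0.20 and 0.57. The plaque protein Pkp1 differed by 0.68 and 1.5. Among 19 tight and gap junction genes, the connexins Gjb6 (1.65 and 1.53) and Gja1 (1.26 and 1.37) were 2-fold higher in both and 0 were lower. The claudins of simple epithelium Cldn3 (-0.66 and -0.66) and Cldn4 (-0.57 and -0.89) were lower in both by less than 2-fold.

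Of 21 basal genes, 4 were higher in both and 0 lower, where 0.748% of all genes were higher and 0.11% lower. Krt5 measured 13.10 in nDKO 1 and 12.35 in nTKO 1 against 10.87, 10.81 and 10.52 in the low arrays, and Krt14 12.89 and 11.90 against 11.17, 10.58 and 9.96. Trp63 measured 9.49 and 8.64 against 7.04, 6.86 and 7.25 in its brightest probe set, and the water and glycerol channel Aqp3 8.84 and 8.05 against 5.77, 6.13 and 5.68. High and low arrays did not overlap for these 4 genes, and the share of all genes without overlap was not taken. Other probe sets of Trp63 gave 0.04 to 0.72 in nDKO and -0.11 to 0.08 in nTKO, and other probe sets of Aqp3 reached from -0.17 to 3.57 and from -0.02 to 1.78. Krt5 and Krt14 are also among the 24 keratinisation genes counted above. Over all 21 basal genes the median was 0.33 in nDKO and -0.31 in nTKO. Some members differed in sign between the genotypes: the hemidesmosome collagen Col17a1 differed by 0.86 in nDKO and -2.03 in nTKO, the linker Dst by 1.89 and -0.91, and the laminin chain Lamb3 by 0.14 and -1.31. The difference between the genotypes was not tested.

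**Figure D3:**
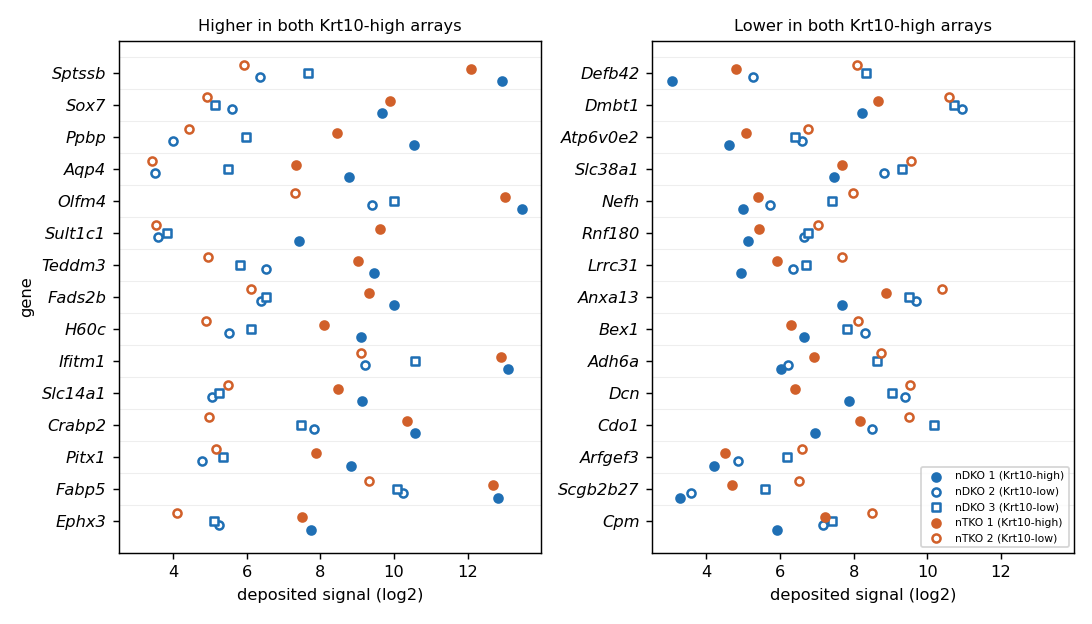
Deposited log2 signal (horizontal axis) of the 15 named genes higher in both Krt10-high arrays (left) and the 15 lower in both (right), 1 row a gene, with filled symbols for Krt10-high and open symbols for Krt10-low arrays, blue for nDKO and orange for nTKO. On the left the filled symbols lie to the right of all open ones, as for Sptssb at 12.93 and 12.08. On the right they lie mostly to the left, with overlap for Scgb2b27, Adh6a and Cpm. The genes were chosen on their differences in these same arrays, so the separation is not separate support.

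Among the 20 genes lower in both, Defb42, a beta-defensin of the male tract, measured 3.06 in nDKO 1 and 4.8 in nTKO 1, against 5.26 in nDKO 2, 8.34 in nDKO 3 and 8.08 in nTKO 2, with differences of -3.74 and -3.28. Dmbt1, a secreted scavenger receptor protein of mucosal glands, measured 8.22 and 8.67 against 10.93, 10.72 and 10.60. The calcium-binding Anxa13 of secretory epithelium measured 7.68 and 8.87 against 9.70, 9.49 and 10.39. None of these 3 overlapped between the groups, with the limits given above. Further lower genes were Atp6v0e2, a subunit of the proton pump (-1.89 and -1.67), the glutamine transporter Slc38a1 (-1.61 and -1.86, and -1.08 and -1.20 by its other probe set), the ubiquitin ligase Rnf180 (-1.59 and -1.60, with -0.05 and 0.00 by its other probe set), the neurofilament Nefh (-1.59 and -2.56), Lrrc31 (-1.58 and -1.78), Bex1 (-1.42 and -1.82), Cdo1, cysteine dioxygenase (-2.39 and -1.31), Arfgef3 (-1.31 and -2.10) and the carboxypeptidase Cpm (-1.37 and -1.28). Scgb2b27, a secretoglobin, at 3.29, 3.58 and 5.6 in nDKO 1, 2 and 3, and the alcohol dehydrogenase Adh6a, at 6.04, 6.21 and 8.63, were close in nDKO 1 and nDKO 2, so their nDKO differences (-1.30 and -1.38) rest on nDKO 3.

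Of 18 luminal genes 0 were 2-fold higher or lower in both, 12 were lower and 2 higher in both by any amount, and the medians were -0.30 and -0.22. Over all 18193 genes, 4123 were lower and 4938 higher in both by any amount. Krt8, a keratin of simple epithelium, measured 12.96 and 13.12 in the high arrays and 13.32, 13.35 and 13.55 in the low ones. Epcam, the antigen of the bead selection, lay between 12.94 and 13.48 in all arrays. Hoxb13, a homeobox factor of the prostate, measured 8.86 and 9.37 against 9.98, 10.28 and 10.29, with differences of -1.27 and -0.92. The 2 higher genes were the keratin Krt4 (0.85 and 1.15) and the mucin Muc1 (0.71 and 1.01). Psca, a surface antigen, was 2-fold apart in opposite directions (3.56 and -1.78). In RNA pooled from bead-selected cells, fewer cells of a type and less RNA per cell cannot be told apart, and the same holds for a rise.

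Androgen-regulated and prostate secretory genes gave 0 of 22 higher or lower in both, with 2 in opposite directions and medians of -0.37 and -0.18. Fkbp5, an androgen- and glucocorticoid-induced chaperone, measured 9.76 and 9.86 against 11.04, 11.07 and 10.44, a difference of -1.30 in nDKO and -0.58 in nTKO. Another Fkbp5 probe set gave -1.34 and -1.14, which is 2-fold lower in both, and a dim one gave -0.145 and -0.01. The count of 0 therefore holds for the probe sets used. Pbsn, the gene of the Probasin promoter that drives the deletions, measured 3.91, 3.33 and 5.43 in nDKO 1, 2 and 3 and 3.81 and 8.15 in nTKO 1 and 2. It was high in nTKO 2 alone.

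Signalling genes with a place in squamous fate showed a few shared members, and over all genes 0.748% were higher in both. In the Notch pathway, which drives keratinocytes out of the basal layer, 2 of 21 genes were higher in both and 0 lower (medians 0.075 and 0.18). The ligand Jag1 measured 10.99 and 10.44 against 9.53, 9.53 and 8.67, and all 3 of its probe sets differed by 1.31 to 1.83. The target Nrarp measured 10.47 and 9.48 against 9.34, 9.27 and 8.35, so that nTKO 1 lay close to nDKO 2. The receptors Notch3 (1.21 and 0.88) and Notch1 (0.89 and 0.76) were higher by less, and the target Hes1 by 0.17 and 0.42. In the retinoid list, Crabp2 was the 1 of 20 genes past 2-fold in both. Of 14 EGF family genes 0 passed in both: Egf itself was at 5.40 in nDKO 1 and 9.24 to 10.34 in the other 4 arrays (differences -4.39 and -0.62), and epiregulin, Ereg, at 6.35 in nDKO 1 and 3.81 to 4.27 elsewhere (2.32 and 0.46). In the interleukin-1 family, 1 of 19 passed, Il1f9, an epithelial alarm cytokine of the IL-36 branch (1.5 and 2.16), and Il33 (0.87 and 1.11) and Casp1 (0.82 and 2.19) were higher by less in nDKO.

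Growth arrest and stress lists are read beside the share of all genes higher in both, 0.748%. Of 16 cell cycle inhibitors and D cyclins, the CDK4 and CDK6 inhibitor Cdkn2b was higher in both, at 9.03 and 8.60 against 7.80, 7.83 and 7.43, and Cdkn1a, the p21 gene, differed by 0.91 and 1.39. Of 33 S phase and mitosis genes 0 were higher or lower in both, with medians of 0.26 and 0.00. Of 20 p53 targets 1 was higher, Perp, named above, and the receptor Eda2r differed by 0.83 and 1.43. Of 20 Wnt targets 0 passed, with Myc at 0.73 and 1.15 and Axin2 at -0.26 and -0.33. Of 22 NRF2 and glutathione genes 3 were higher and 0 lower: the glutathione transferases Gsta2 (2.59 and 1.21) and Gsto1 (1.08 and 1.06) and the aldehyde dehydrogenase Aldh3a1 (1.77 and 1.17). Gsta2 was dim in the low arrays, at 3.0 to 3.02. Of 23 hypoxia and glycolysis genes 0 passed, with Hif1a at 1.04 and 0.86 and Car9 at 0.79 and 1.32.

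Immune genes set the 2 Krt10-high arrays apart from each other. All 23 interferon response genes were lower in nDKO 1 than the mean of nDKO 2 and nDKO 3, with differences from -1.64 to -0.35 and a median of -1.0. In nTKO the median was -0.07 and the range -0.65 to 1.92. Of the 23, 0 were 2-fold lower in both. Ifit3, an interferon-induced antiviral protein, measured 10.04 in nDKO 1, 11.52 in nDKO 2, 11.83 in nDKO 3, 11.32 in nTKO 1 and 11.54 in nTKO 2. Stat2, which carries the interferon signal to the nucleus, measured 7.83 and 8.18 in nDKO 1 and nTKO 1 against 8.82, 8.96 and 8.78, lower in both high arrays by 1.06 and 0.60. Its other probe set gave -0.965 and -0.18, with nTKO 1 (8.51) above nDKO 2 (8.48). The class I peptide genes followed the same order in nDKO, with medians of -0.46 in nDKO and -0.10 in nTKO, and the proteasome subunit Psmb9 at -1.28 and -0.23. Ifitm1, which carries an interferon-induced name, was higher in both high arrays while this list was lower in nDKO 1.

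Neutrophil markers were higher in nTKO 1. The array medians of the 21 markers were 5.97, 5.90 and 6.33 in nDKO 1, 2 and 3, 7.62 in nTKO 1 and 5.34 in nTKO 2, with median differences of 0.00 in nDKO and 1.5 in nTKO. The calgranulin S100a8 measured 10.53, 9.66, 10.37, 12.79 and 8.30 in the same order, and S100a9 10.01, 9.26, 9.99, 12.94 and 7.93. The neutrophil receptors Csf3r (-0.02 and 1.5), Cxcr2 (0.07 and 1.07) and Fpr2 (0.03 and 3.55) had the same pattern, while the granule genes Elane and Mpo lay between 3.99 and 4.74 on all arrays. Calgranulins are also made by squamous keratinocytes, and the part of neutrophils in the nTKO differences was not tested. Of 29 chemokines, Cxcl3, a neutrophil attractant, was higher in both (1.45 and 1.06). Macrophage and dendritic markers had medians of -0.01 and 0.35, and 0 of 22 passed in both. The T, NK and B cell markers gave 0 of 17, with array medians of 3.98 to 4.65, and the mast cell and neuroendocrine markers gave 0 of 10 and 0 of 11.

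Stromal markers gave 1 shared gene. Dcn, decorin, a matrix proteoglycan, was 2-fold lower in both, at 7.87 in nDKO 1 and 6.41 in nTKO 1 against 9.39, 9.03 and 9.52, while its other probe set gave 0.005 and 0.00. The other 19 of 20 fibroblast and smooth muscle markers did not pass, and the fibroblast collagens Col1a1 (4.52 to 4.65) and Col3a1 (2.66 to 3.44) stayed below the array medians of 4.94 to 4.98. Of 8 urothelial markers, Krt20, also a keratinisation gene by its name, was higher in both (1.34 and 1.08), and of 18 mucins Muc15 (2.32 and 3.60). The array medians of the fibroblast list lay between 4.48 and 4.67.

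**Figure D4:**
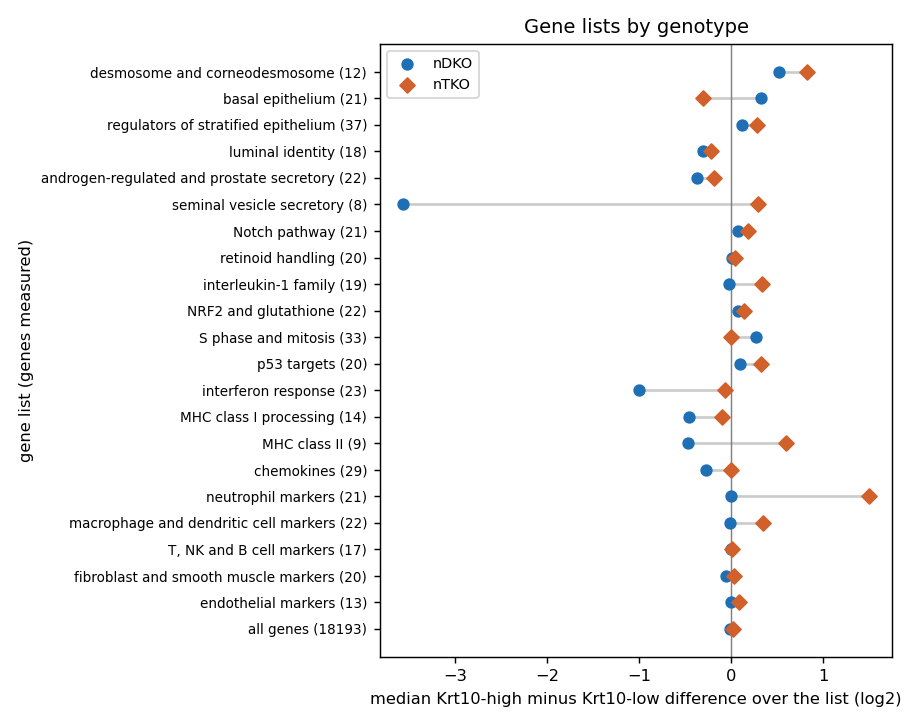
Median log2 difference, Krt10-high minus Krt10-low (horizontal axis), over the measured genes of each list (vertical axis, number of genes in brackets), with blue circles for nDKO and orange diamonds for nTKO. Desmosome genes lie above 0 in both genotypes (0.52 and 0.83), interferon genes at -1.0 and -0.07, neutrophil markers at 0.00 and 1.5, and seminal vesicle genes at -3.57 and 0.29.

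The largest opposite differences lay in secretory transcripts of the seminal vesicle and its neighbours. Of the 20 genes 2-fold apart in opposite directions, 5 were higher in the Krt10-high array of nDKO and 15 in that of nTKO, and the 6 with the largest shared size were of the latter kind. Sva, seminal vesicle antigen, measured 4.30 in nDKO 1 against 8.91 and 11.38 in nDKO 2 and 3, and 10.37 in nTKO 1 against 6.19 in nTKO 2. Svs3a, a clotting protein of the ejaculate, measured 7.70, 11.56 and 12.97 in nDKO and 11.42 and 7.93 in nTKO, and Svs6 6.41, 10.93 and 12.55 in nDKO and 11.33 and 8.06 in nTKO. nDKO 1 and nTKO 2, of like age and on opposite sides of the Krt10 split, were thus the low arrays for all 3. Pate14 (7.47, 9.84 and 11.63, then 10.21 and 7.01), Ceacam10 (7.72, 10.80 and 12.21, then 10.93 and 8.34) and the nuclease Dnase2b (3.90, 5.33 and 7.20, then 5.72 and 3.8) had the same low arrays. Svs2 did not, with 8.86 in nDKO 1 and 12.37 to 13.61 in the other 4 arrays. Over the 8 seminal vesicle genes the medians were -3.57 and 0.29. Whether RNA of seminal vesicle cells or fluid moves with these values was not tested.

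**Figure D5:**
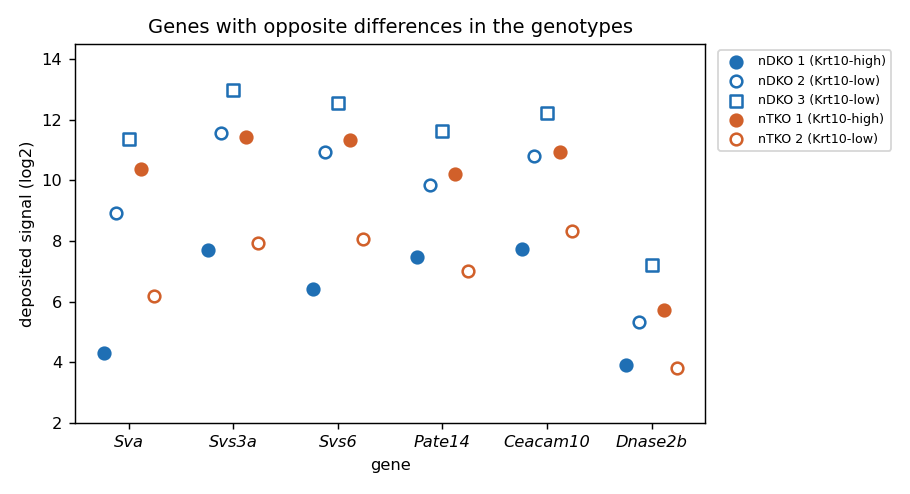
Deposited log2 signal (vertical axis) of the 6 genes with the largest opposite differences (horizontal axis) in each array, filled symbols for Krt10-high and open symbols for Krt10-low arrays, blue for nDKO and orange for nTKO. In nDKO the filled symbol lies below the open ones, as for Sva at 4.30 against 8.91 and 11.38. In nTKO it lies above, at 10.37 against 6.19. The genes were chosen for opposite differences in these same arrays, so this order comes with the choice.

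Genotype comes from the labels and not from the split, so it was tested, with the Krt10 state as a term in the fit. The term itself comes from the measured Krt10 values. The nTKO mice were 31.43 and 16 weeks old and the nDKO mice 15.86, 10.71 and 10.71, so the genotype difference is mixed with age. Pygo2 measured 8.65, 8.62 and 8.72 in nDKO and 7.30 and 6.35 in nTKO, lower in both nTKO arrays as labelled, with a log2 fold change of -1.90 (SE 0.27, limma adjusted p = 0.449). In the Krt10-high nTKO array it lay 0.95 above the Krt10-low one. Whether its probe set lies inside the deleted part was not determined. Smad4, floxed in both genotypes, measured 9.63, 9.88 and 9.88 in nDKO and 9.76 and 10.37 in nTKO. With limma, 0 of 18193 genes (0%) differed between the genotypes at an adjusted p under 0.05 (smallest 0.449). Before adjustment, 1640 genes had a p under 0.05 with the term and 689 without it, and chance gives 910. Among genes at least 2-fold apart, those with the smallest p were Cpm (1.26), Slc5a8, a monocarboxylate transporter (1.04), the peptidoglycan recognition protein Pglyrp1 (1.29), Pfn2 (1.06) and Chodl (1.0), higher in nTKO. On the lower side were the kinase Sgk1 (-1.21), the stress keratin Krt6b (-1.25), the fucosyltransferase Fut9 (-1.11), Gp2 (-1.39) and Anxa8 (-1.28). Each had a limma adjusted p of 0.449. Cpm and Chodl also belong to the 20 genes lower in both Krt10-high arrays, and Krt6b to the keratinisation genes higher in both (3.50 and 3.20). Krt6b differed by -0.69 between the genotypes without the Krt10 term. Without that term the unadjusted limma p of the genes named here ran from 0.0029 for Sgk1 to 0.69 for Krt6b.

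Some of the shared genes lie side by side in the genome. By the order of protein-coding genes in GRCm38.p6, 10 neighbouring pairs were among the higher genes, keratinisation included, and 1 pair, Sectm1b and Sectm1a, among the lower. Outside keratinisation the higher pairs were Dsc2 and Dsc3, the oxidase Duox1 (1.79 and 1.24) with its maturation factor Duoxa1 (1.97 and 1.27), Clca1 (1.83 and 1.47) with Clca2 (2.02 and 2.57), H60c with Ppp1r14c (1.63 and 2.42), and Olfm4 with the protocadherin Pcdh8 (3.79 and 1.28). Clca1 and Clca2 are related copies, as are Sectm1a and Sectm1b, and their probe sets may share signal. These pairs were named after their values were seen.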

How the data were processed

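Per the submitters' processing notes, the authors used the Transcriptome Analysis Console and RMA (version numbers: not given in the sources used here). The deposited table gives a log2 signal for each probe set on each array. RMA equalises the distribution of signals between arrays, so a shift shared by most genes cannot be seen, and dim probe sets sit near a common floor. Each array is 1 mouse, and the small number of arrays limits the precision.

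Of 45037 probe sets, 34945 had 1 gene symbol, 932 several and 9160 none in the platform annotation. A gene was represented by its brightest probe set with a single symbol, which gave 18193 genes. Of the 34945, 34741 were found by gene identifier in RefSeq (GRCm38.p6). Differences were taken within each genotype. Genotype was tested with limma 3.58.1 in R 4.3.3 (lmFit, eBayes with an intensity trend, two-sided, Benjamini-Hochberg over all genes, threshold 0.05). Other steps used Python 3.11.15 and pandas 2.3.3.

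The members, the 39 gene lists and the rules were chosen with earlier results of these data known. Named genes are the 5 markers, up to 15 per direction outside keratinisation by the smaller within-genotype difference (predicted and clone-named genes left out), up to 5 per list by the same ranking with any 2-fold member of an immune, stromal or regulator list, up to 6 in opposite directions, Pygo2 and Smad4, and up to 5 per direction by p in the genotype fit. Further names (Col17a1, Dst, Lamb3, Psca, Ifit3, Fpr2, Calml3, Scel, the transglutaminases, the AP-1 and other members with small differences) were chosen after their values were seen. Scanner files were not used here. Alternatives were the fold, quantile normalization, median centring, a filter at the median gene, all or the mean of a gene's probe sets, log2 age, a replicate block, and leaving out arrays.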

Additional observations from a re-analysis of the deposited data

Results flagged for a closer look

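The 6 genes with the largest opposite differences are given here for the gap between the genotypes, the nTKO difference less the nDKO difference, in log2 units. The gap was 10.03 for Sva, 8.06 for Svs3a, 8.60 for Svs6, 6.47 for Pate14, 6.38 for Ceacam10 and 4.29 for Dnase2b. In each, the Krt10-high array lay below both Krt10-low arrays in nDKO and above the Krt10-low array in nTKO. The genes were chosen for opposite differences in these same arrays, so this order comes with the choice and is not separate support. The gap was not tested, since the arrays were split on their own readout. A second probe set of Ceacam10 gave -4.14 in nDKO and 2.69 in nTKO, and another -0.02 and 0.25.

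Outside the comparison of genes stand 9160 probe sets without a symbol. Of these, 11 (0.12%) passed 2-fold upwards in both genotypes and 5 (0.0546%) downwards. The one with the largest shared difference measured 8.84 in nDKO 1 and 8.34 in nTKO 1, against 6.89, 7.0 and 6.42 in nDKO 2, nDKO 3 and nTKO 2. Their genes were not analysed here.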

How the results depend on the processing

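The counts of genes outside keratinisation follow the fold that is asked for: at 2 log2 units 28 genes were higher in both Krt10-high arrays and 1 lower, and at 0.5 log2 units 362 and 205. After a filter at the median gene 74 were higher, and over all probe sets 33 were lower. Without nDKO 2 and without nDKO 3 the higher count was 116 to 118 and the lower count 16 to 33. Leaving out nDKO 1, nTKO 1 or nTKO 2 leaves no difference within that genotype, so it gives no value. The other settings kept the counts within 1.5 times. Among differences of at least 2-fold in the probe set used, opposite signs came from other probe sets of Dcn (0.005 in nDKO), Aqp3 (-0.17 in nDKO and -0.02 in nTKO), Trp63 (-0.11 in nTKO), Hif1a (-0.02 in nDKO), Slc2a3 (-0.02 in nTKO), Tap1 (0.115 in nDKO) and Ncam1 (-0.195 and -0.085 in nDKO), and the cause was not tested.

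In the genotype fit the count at an adjusted p under 0.05 was 0 in every setting run, leaving out each array included. With the replicate block in place of the Krt10 term it was 0, with 917 genes at an unadjusted p under 0.05, and with log2 age 0 and 1901. Replicate 1 of each genotype is its Krt10-high array, so block and split nearly coincide, and the shared numbers do not pair mice. With 5 arrays and 2 residual degrees of freedom, a missed threshold does not show that the genotypes were alike.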
